A study of Rattus norvegicus with 17 samples.

Results

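Isopropylated phenol phosphate (IPP) is an aryl phosphate ester used as a flame retardant and plasticizer. The comparison described here is its smallest daily amount, 76.5 mg/kg body weight, against the corn oil vehicle in rat liver. It rests on 8 of the 17 arrays of the study, chosen by their labels: 3 rats given IPP and 5 rats given corn oil alone. All were male Harlan Sprague-Dawley rats dosed by oral gavage once daily for 4 days, and the liver was taken on day 5. The treatment protocol rounds the smallest amount to 77 mg/kg, which it equates to 0.169 mmol/kg, and 3 rats each received 153, 305.5 or 611 mg/kg. Pieces of the left lobe of 1 rat gave 1 array, so each value below belongs to a separate animal. The age of the rats is not given in the sources used here. In the text the animals are called vehicle rats 1 to 5 and treated rats 1 to 3. The numbers are names and pair no animals.

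A liver that meets a foreign compound usually answers through nuclear receptors. CAR and PXR bind foreign chemicals or their signals and switch on oxidizing enzymes, carboxylesterases, glucuronosyltransferases and export pumps. The liver also carries a circadian clock. In it CLOCK and BMAL1 activate genes through E-box sequences, PER and CRY proteins repress that activity, and the nuclear receptors NR1D1 and NR1D2 (REV-ERB alpha and beta) repress Bmal1 through ROR elements. The clock's output factors DBP, TEF and HLF act through D-box sequences, where NFIL3 opposes them.

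Values are on a log2 scale, on which a difference of 1 is a doubling, and ran from 2.61 to 15.36 over all arrays, with correlations between pairs of arrays of 0.974 to 0.996. With 3 and 5 arrays a group, their number and the spread between rats limit the precision. The tissue carried hepatocyte markers at high levels, with a mean over 9 measured markers of 14.3 to 14.4 in the vehicle rats and 14.2 to 14.4 in the treated rats. Albumin (Alb) read 15.34 to 15.35 in the vehicle rats. Of 12 pancreas markers 9, and of 10 lymphocyte markers 6, had means under log2 6, near the low end of the scale. The GAPDH control probes, whose 3' minus 5' difference grows as RNA is degraded, gave 1.37 ± 0.18 (SD, n = 5) in vehicle and 1.22 ± 0.27 (SD, n = 3) in treated rats (two-sided exact permutation p = 0.304 over 56 splits, of which the smallest possible is 0.0179; adjusted over 3 control measures 0.455).

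The 3 treated rats were less alike than the rats of any other group. The median SD over genes was 0.172 at 76.5 mg/kg, against 0.119 in vehicle and 0.115, 0.118 and 0.149 at 153, 305.5 and 611 mg/kg. The SEs, intervals and adjusted p-values of genes below use 1 spread per gene over all 17 arrays. Where the treated rats differed most, SEs and intervals can therefore be too narrow and p-values too small. Cdkn1a, for example, had an SD of 1.215 in treated and 0.511 in vehicle rats. Treated rat 3 stood apart most. Among 6022 genes with a mean of at least 8, 218 genes in rat 3 lay 1 or more from the mean of the other 2 treated rats, compared with 46 genes in rat 1 and 61 in rat 2.

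Measured from the mean of rats 1 and 2, rat 3 was highest in A2m, Cxcl1, Hmox1, Rgs16 and Retreg1 and lowest in Cyp7a1, Osgin1, Paqr7, Gadd45g and Inhba. Genes of acute phase plasma proteins also read high in it. A2m, a protease inhibitor of the rat acute phase, read 14.09 in rat 3 and 9.04 to 10.99 on all 16 other arrays. Lcn2 (lipocalin 2) read 11.07 in rat 3 and 5.71 to 7.35 on the others. Outside that group of genes, Hmox1, the heme-degrading oxygenase, read 12.03 against 8.56 to 9.56. Of 15 measured positive acute phase genes, rat 3 lay above all 16 other arrays in 12 and above the vehicle range in 14. Rat 1 exceeded that range in 2 and rat 2 in 1. Some margins of rat 3 were small, with Crp at 13.34 against at most 13.31 on the other arrays and Hp at 14.9 against at most 14.85. The shares of all genes in which rat 3 lay above the 16 other arrays, or each rat above the vehicle range, were not counted. These counts therefore have no background and cannot be read as particular to acute phase genes.

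The S100a9 and S100a8 calprotectin genes read 9.45 and 8.02 in rat 3, above 6.44 to 8.01 and 4.72 to 6.33 on the others. The other 4 neutrophil markers measured, Np4, Cxcr2, Csf3r and Camp, read 4.34, 4.57, 5.27 and 6.01 in rat 3, each inside its vehicle range. The mean of 6 neutrophil markers was 0.85 above the vehicle mean in rat 3, 0.14 above it in rat 1 and 0.06 below it in rat 2 (-0.06), and 5 of the 6 had means under log2 6. The group range of that mean was 5.26 to 5.70 in vehicle and 5.36 to 6.28 in treated rats. Cyp7a1, the rate-limiting enzyme of bile acid synthesis, read 11.45, 12.94 and 8.0 in rats 1 to 3 against 9.34 to 10.73 in vehicle, so that rats 1 and 2 lay above the vehicle range and rat 3 below it.

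Other genes were highest or lowest in rat 1 or rat 2. The stress gene Ddit4 read 9.87, 7.31 and 8.31 in rats 1 to 3, so that rat 3 too lay above the vehicle range of 6.78 to 7.64. Dusp1 read 12.11, 10.62 and 10.0 against 9.94 to 10.89, with only rat 1 above vehicle. Ccnd1 (cyclin D1) read 10.94 in rat 1 but 8.85 and 8.02 in rats 2 and 3. The chemokine Cxcl1 read 7.49, 9.14 and 11.44 in rats 1 to 3, and only rat 3 lay in the vehicle range of 10.78 to 12.53. Bcl6, a transcriptional repressor, read 9.14, 10.48 and 7.76 against 6.86 to 7.85 in vehicle, above it in rats 1 and 2. The cadherin Cdh17 was lowest of all 17 arrays in rat 2, at 5.61. What part these differences between treated rats had in the results was not tested, and results are therefore given with and without the rats concerned.

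**Figure D1:**
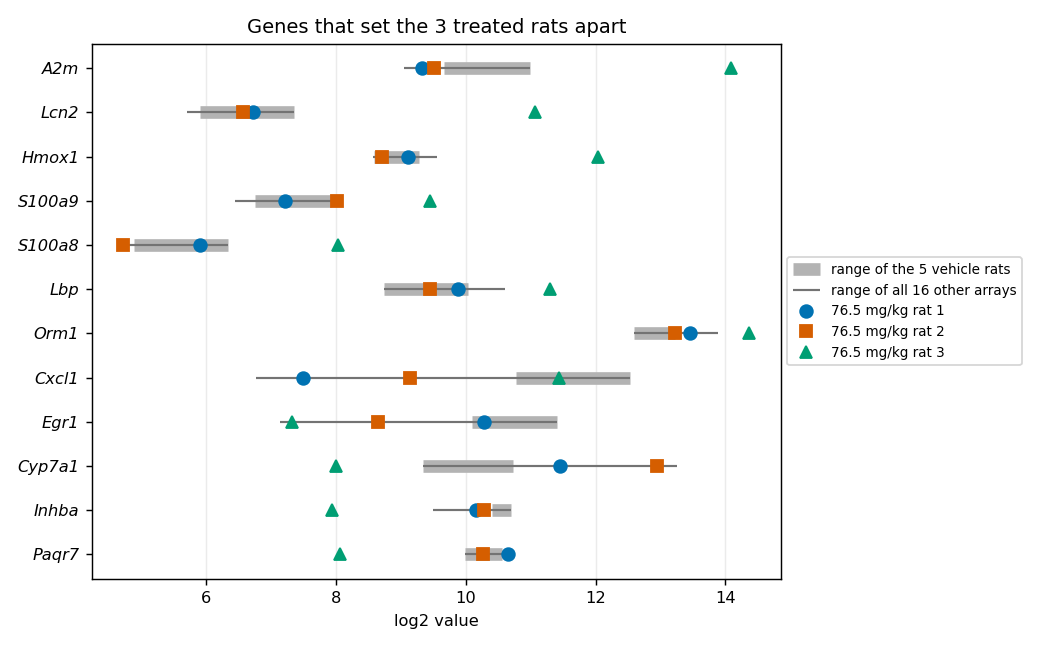
Log2 values (x axis) of 12 genes that separated the 3 treated rats. Coloured symbols are treated rats 1 to 3, grey bars the range of the 5 vehicle rats and thin lines the range of the 16 arrays other than treated rat 3; rat 3 reads 14.09 for A2m against at most 10.99 on the others, and 8.0 for Cyp7a1 against 12.94 in rat 2.

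At 76.5 mg/kg few genes differed from vehicle past the test, and they included rises of up to 2.87 on the log2 scale. Of 14217 genes tested with limma, 20 were higher and 18 lower at a Benjamini-Hochberg adjusted p under 0.05. These 38 genes were 0.267% of the genes tested (0.141% higher and 0.127% lower). At an unadjusted p under 0.05 were 1527 genes (10.7%), 5.56% higher and 5.18% lower. These shares are the background for the counts of list members below. The median difference over all genes was 0.01. In 37 of the 38 genes all 3 treated rats lay outside the range of the 5 vehicle rats on the same side, as they did in 896 genes (6.30%) of all genes tested. The exception was Cdkn1a. With a size of at least 1 as well, 7 rises and 5 falls remained (0.0844%).

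**Figure D2:**
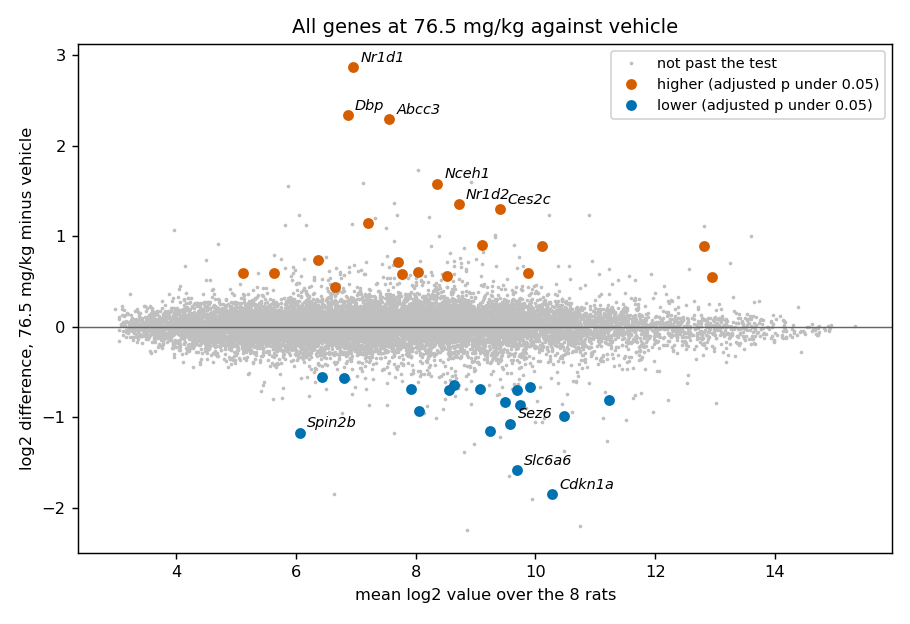
Log2 difference between 76.5 mg/kg and vehicle (y axis) against the mean log2 value over the 8 rats (x axis) for 14217 genes. The 20 higher genes are in orange and the 18 lower in blue. Nr1d1, at 2.87, has the largest rise past the test, and some grey genes with large differences did not pass.

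The count depended on single rats. It was 47 higher and 46 lower without treated rat 1, 8 and 3 without rat 2, and 49 and 34 without rat 3. These totals, each of 14217 genes, are the background for list counts without single treated rats below. Of the 38 genes, 35 kept their call without rat 1, 6 without rat 2 and 24 without rat 3, and all 38 kept their direction in each. Leaving out vehicle rats 1 to 5 in turn gave 12, 11, 16, 14 and 14 higher and 5, 7, 10, 11 and 14 lower genes, and 21, 20, 15, 13 and 13 of the 38 calls were lost. Only Nr1d1, Nr1d2, Ces2c and Sez6 kept their call whichever of the 8 rats was left out. Just inside the threshold lay Acbd6 (adjusted p 0.0483), Cdkn1a and Cabcoco1 (0.0384 each), and just outside it Oaf and Tmem30b (0.0539 each) and St8sia1 (0.0593).

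The largest rise was in a clock gene, and the 4 called clock genes belong to the clock's repressor and output arms. Nr1d1 and Nr1d2, the REV-ERB receptors that repress Bmal1, and Dbp, an output activator, were higher, and Cry1, a repressor of CLOCK and BMAL1, was lower. Of the clock list, 19 genes were measured: these 4 passed, beside 0.267% of all genes, and the other 15 did not. The list was chosen with earlier results of these data known. The median over the 19 was -0.15, beside 0.01 over all genes. Levels of clock genes follow the time of day, and whether the hour of necropsy differed between the groups was not tested.

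Sequence upstream of the start site is shown for 4 clock genes, a called pair (Nr1d1, Nr1d2) and an uncalled pair (Tef, Bmal1), because each holds a letter match to an element through which the clock is known to act. The 250 bases before each RefSeq start (rat build GRCr8) were searched on both strands for the E-box CACGTG, the ROR half-site AGGTCA and the D-box TTANGTAA; none of the 3 motifs contains another. Capitals mark the match, and each sequence reads 5′ to 3′ on the gene's strand. The windows lie at chr10:84229600-84229685 (minus strand, 1 of the RefSeq starts of Nr1d1), chr15:9954807-9954892 (plus, Nr1d2), chr7:115206589-115206674 (plus, Tef) and chr1:176766273-176766327 (plus, Bmal1), all upstream of the transcribed part.
Nr1d1, E-box: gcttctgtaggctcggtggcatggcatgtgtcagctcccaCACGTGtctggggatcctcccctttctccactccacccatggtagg
Tef, E-box: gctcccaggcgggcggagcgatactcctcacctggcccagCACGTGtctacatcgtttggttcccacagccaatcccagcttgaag
Nr1d2, ROR half-site: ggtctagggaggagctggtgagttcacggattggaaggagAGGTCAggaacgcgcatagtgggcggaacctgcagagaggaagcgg
Bmal1, ROR half-site: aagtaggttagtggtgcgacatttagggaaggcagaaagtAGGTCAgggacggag

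The matches begin 191 bases before the start in Nr1d1, 198 in Tef, 187 in Nr1d2 and 15 in Bmal1. The E-box letters stood in 5.59% of 33469 rat promoters, in 4 of 17 clock genes with a promoter entry (Bhlhe40, Bhlhe41, Nr1d1 and Tef) and in 3 of 31 called genes with one (Nceh1, Nr1d1 and Spin2b). The ROR half-site stood in 14.1% of promoters, in 3 of the 17 clock genes (Bmal1, Nr1d2 and Usp2) and in 6 of the 31 called genes. The D-box stood in 2.04%, in 1 clock gene (Per2) and in 0 of the 31. These are matches of letters within this window and say nothing of binding.

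Nr1d1 read 6.15, 5.66, 5.68, 5.62 and 6.27 in vehicle rats 1 to 5 and 8.90, 9.13 and 8.21 in treated rats 1 to 3. Every treated rat lay above every vehicle rat, with rat 3 the lowest of the 3. The rise was 2.87 ± 0.22 (SE; adjusted p = 3.17e-06), a 7.31-fold change with a 95% interval of 2.41 to 3.33 on the log2 scale. It was 3.14 without rat 3 and 2.68 without rat 2. The vehicle mean of 5.88 lay under log2 6, where array signal is compressed and folds tend to be understated; this also holds for Dbp, Rbp2 and Cabcoco1 in vehicle and for Spin2b in treated rats.

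Nr1d2 read 8.13, 8.40, 8.33, 7.94 and 8.24 in vehicle and 9.76, 9.62 and 9.31 in treated rats. The treated rats lay close together above all vehicle rats, and the rise was 1.35 ± 0.12 (adjusted p = 2.49e-05). A second probe set of the gene gave 1.37, while the dimmest, at a mean of 3.94, gave 0.16.

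Dbp, the D-box binding activator of clock output, read 6.03, 5.94, 5.96, 5.72 and 6.29 in vehicle and 8.33, 9.39 and 7.26 in treated rats. All 3 lay above vehicle but far from each other, with rat 2 highest and rat 3 lowest. The rise was 2.34 ± 0.38 (adjusted p = 0.0145), and it lost its call without rat 2 (1.81, adjusted p 0.0748). Cry1 read 8.50, 8.42, 8.78, 8.11 and 8.26 in vehicle and 7.36, 7.56 and 7.52 in treated rats, a fall of 0.93 (-0.93 ± 0.16, adjusted p = 0.0204) in which the treated rats lay close together below all vehicle rats. Without rat 2 its adjusted p was 0.0739, and the call was also lost without vehicle rat 1 or 2.

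Among the clock genes that did not pass, the positive arm had negative differences. Npas2, a partner of BMAL1, read 8.54, 8.35 and 7.63 in treated rats against 8.89 to 9.07 in vehicle (-0.77 ± 0.17, adjusted p = 0.0855). Bmal1 itself read 7.66, 7.24 and 8.03 against 8.36 to 8.71 (-0.88 ± 0.26, adjusted p = 0.203), with all treated rats below vehicle. Clock read 9.07, 8.67 and 8.95 against 9.05 to 9.22, and rat 1 overlapped vehicle.

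Per3 and Cry2 had positive differences of 1.13 and 0.51. Per3 was above vehicle in all 3 rats (6.32, 7.29 and 5.97 against 4.87 to 5.85), while Cry2 was above it in rats 1 and 2 and within it in rat 3 (8.88, 8.68 and 7.64 against 7.63 to 8.21). Nfil3 read 9.15, 9.32 and 10.09 against 10.27 to 10.78, below vehicle in each rat but least so in rat 3 (-1.01 ± 0.27, adjusted p = 0.158). Usp2, a deubiquitinase with a strong daily rhythm, was below vehicle in all 3 rats (6.64, 6.89 and 7.17 against 7.42 to 8.70; -1.18 ± 0.36, adjusted p = 0.231).

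Tef, like Dbp an output activator, was above vehicle in rats 1 and 2 and within its range in rat 3 (9.02, 9.04 and 8.52 against 8.36 to 8.57). Hlf, the remaining member of that family, went the other way, at 8.44, 8.06 and 9.0 against 8.77 to 9.44, again with rat 3 in the vehicle range. Rora read 6.64, 6.08 and 5.50 against 6.51 to 6.91, with rat 1 inside the range. Noct, Per1, Per2, Bhlhe40 and Bhlhe41 had differences of -0.44, 0.10, -0.15, 0.06 and 0.07, and their treated rats overlapped vehicle in part. Only in Per1 did all of them lie inside the vehicle range. Rats 2 and 3 lay below it in Noct, and rat 3 in Per2. In Bhlhe40 rat 1 lay above it and rat 2 below it, and in Bhlhe41 rat 1 lay above it.

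In several of these genes rat 3 lay nearest to vehicle, while in others, such as Npas2, Rora and Noct, it lay furthest from it. Over the called genes rat 1 was nearest to vehicle in 9 of 20 rises and 12 of 18 falls. Rat 2 was nearest in 3 and 2, and rat 3 in 8 and 4. Without rat 3, 6 of the 19 clock genes were higher and 3 lower, beside 49 and 34 of all 14217 genes. Per3 (1.41, adjusted p 0.0411) and Nfil3 (-1.29, adjusted p 0.0443) were among those added. Without rat 2, 2 clock genes were higher and 0 lower, beside 8 and 3 of all genes. Without rat 1 there were 3 of each, beside 47 and 46. The number of clock genes called thus moved along with the number over all genes.

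**Figure D3:**
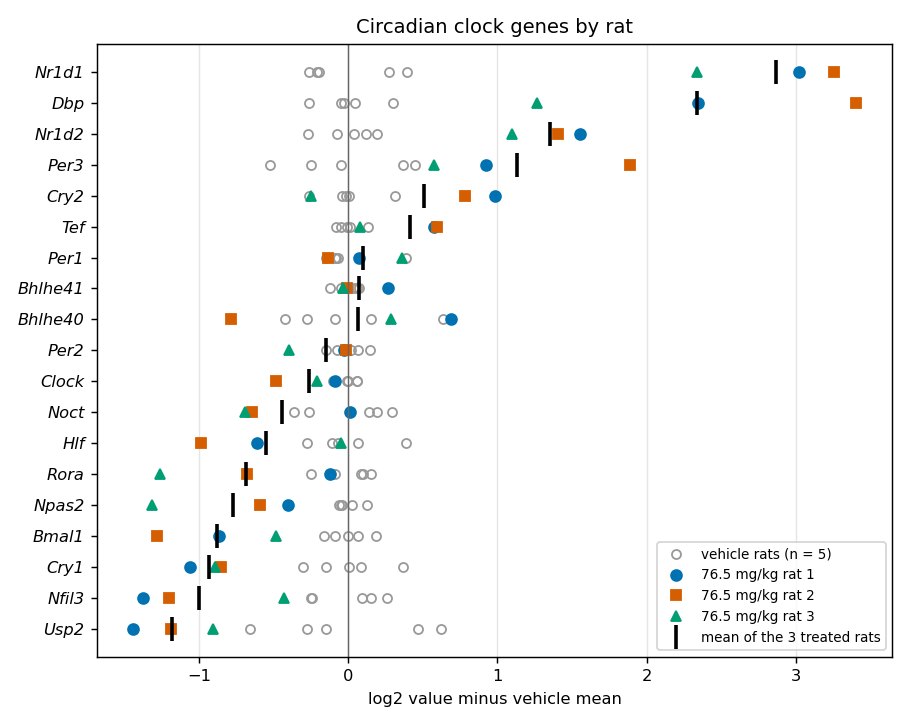
Log2 value minus the vehicle mean (x axis) for 19 clock genes (y axis), ordered by the mean of the 3 treated rats (black bar). Open circles are the 5 vehicle rats and coloured symbols the 3 treated rats; Nr1d1, Dbp, Nr1d2 and Cry1 passed the test, and rat 3 (green triangle) lies at or near the vehicle rats for Cry2, Tef and Hlf.

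Genes of drug disposition formed the next group. Of 23 measured CAR and PXR targets 3 rose and 0 fell, beside 0.141% and 0.127% of all genes. The 3 were the export pump Abcc3, the carboxylesterase Ces2c and the glucuronosyltransferase Ugt2b1. The other 20 did not pass, among them the abundant oxidizing enzymes Cyp3a2 and Cyp2c7, and the median of the list was 0.04, beside 0.01 over all genes. Without rat 1, 2 or 3 the list had 2, 1 and 3 higher genes, beside 47, 8 and 49 of all 14217 genes.

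Abcc3 (MRP3) exports glucuronides and bile salts from hepatocytes into blood. It read 6.36, 6.92, 6.61, 6.93 and 6.66 in vehicle and 9.15, 9.36 and 8.46 in treated rats, a rise of 2.29 ± 0.36 (adjusted p = 0.014), or 4.9-fold. The lowest treated rat, rat 3, lay well above the highest vehicle rat. The call was lost without rat 2 (2.11, adjusted p 0.0759) and the rise was 2.56 without rat 3.

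Ces2c, a serine hydrolase that cleaves esters, was the most uniform of the rises of at least 1. It read 8.98, 8.90, 8.76, 8.94 and 9.04 in vehicle and 10.20, 10.15 and 10.31 in treated rats. The rats of each group lay close together and the groups far apart. The rise was 1.30 ± 0.16 (adjusted p = 0.000656) and stayed between 1.25 and 1.34 whichever treated rat was left out.

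Ugt2b1, which adds glucuronic acid to steroids and drugs, was already abundant in vehicle, at 12.20, 12.32, 12.25, 12.72 and 12.89, and read 13.56, 13.40 and 13.13 in treated rats. The groups were apart by a small gap, since rat 3 lay just above vehicle rat 5. The rise was 0.89 ± 0.17 (adjusted p = 0.0325), and the call was lost without rat 1 (adjusted p 0.0770) or rat 2 (0.121). It was also lost without vehicle rat 1, 2 or 3.

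Among the targets that did not pass, Aldh1a1 read 13.06, 13.16 and 12.70 against 12.0 to 12.59 in vehicle (0.64 ± 0.16, adjusted p = 0.133), above it in each treated rat. Gstm1 read 13.97, 13.85 and 13.90 against 13.38 to 13.76, also above in each. Cyp2c6v1 differed by 0.22 and Sult2a1 by -0.14. Of 9 AhR targets 0 passed in either direction (median -0.07), and 1 had an unadjusted p under 0.05, Nqo1 (0.66). NRF2 and glutathione genes numbered 27, of which 0 passed, with a median of 0.11. An unadjusted p under 0.05 was found in 9, with 7 higher and 2 lower (background 5.56% and 5.18%). Of these, Gsta3 read 9.26, 9.38 and 8.40 against 7.55 to 8.59.

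Of the other esterases only Nceh1 passed. Of 16 measured serine esterases and lipases 2 rose and 0 fell, beside 0.141% and 0.127% of all genes, with a median of -0.07. Nceh1, a membrane hydrolase of neutral cholesterol esters, read 7.98, 8.20, 7.51, 7.73 and 7.42 in vehicle and 8.66, 9.36 and 10.04 in treated rats. All treated rats lay above vehicle, rat 3 highest and rat 1 lowest, not far above vehicle rat 2. The rise was 1.58 ± 0.27 (adjusted p = 0.0193), 1.24 without rat 3, and its call was lost without rat 2 (adjusted p 0.0759). Mgll (monoglyceride lipase) and Aadac (arylacetamide deacetylase) had differences of -0.31 and -0.28, and the neuropathy target esterase Pnpla6 one of 0.05, with adjusted p-values of 0.306, 0.379 and 0.897.

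Of 21 genes of bile acid synthesis and export, Abcc3 and Amacr rose and 0 fell (median -0.09), beside 0.141% and 0.127% of all genes. Amacr, a racemase of branched-chain fatty acids and bile acid intermediates, read 12.94, 12.85, 12.76, 12.59 and 12.58 in vehicle and 13.17, 13.32 and 13.40 in treated rats. The difference was small but the groups did not overlap (0.55 ± 0.09, adjusted p = 0.0188). Its call was lost without rat 2 (adjusted p 0.0759). Cyp8b1, which directs synthesis to cholic acid, was above vehicle in each treated rat without passing (12.74, 12.19 and 11.94 against 11.62 to 11.77; adjusted p = 0.146). Cyp7a1 differed by 0.67 ± 0.74 (adjusted p = 0.806), with the opposed rats described above.

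**Figure D4:**
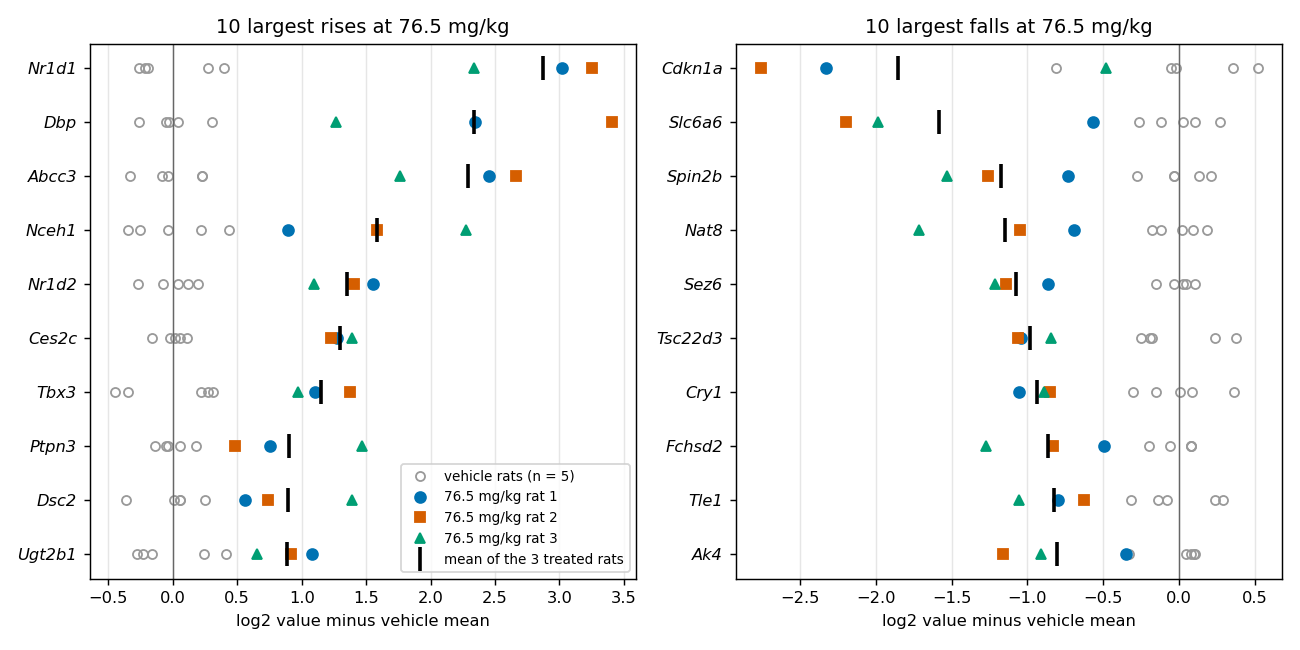
Log2 value minus the vehicle mean (x axis) in each rat for the 10 largest rises (left) and the 10 largest falls (right) past the test. Open circles are the 5 vehicle rats, coloured symbols the 3 treated rats and black bars their mean; Ces2c and Cry1 have tightly grouped treated rats, while for Cdkn1a rat 3 lies among the vehicle rats.

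The remaining rises covered transcription factors, signalling enzymes and a desmosomal protein. Tbx3, a T-box factor known from pericentral hepatocytes, read 7.09, 6.43, 6.99, 6.32 and 7.04 in vehicle and 7.87, 8.15 and 7.75 in treated rats. The treated rats lay above vehicle (1.15 ± 0.19, adjusted p = 0.0188), but 3 other probe sets of Tbx3 gave 0.08, 0.06 and 0.16 and the call was lost without rat 2 (adjusted p 0.0875). It was the only one of 9 measured pericentral markers to pass, and the list had a median of -0.04. Of 10 periportal markers 0 passed and 3 had an unadjusted p under 0.05, all lower (background 5.18%).

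Ptpn3, a protein tyrosine phosphatase, read 8.73, 8.72, 8.95, 8.83 and 8.63 in vehicle and 9.53, 9.25 and 10.24 in treated rats. It was above vehicle in each treated rat and highest in rat 3 (0.90 ± 0.17, adjusted p = 0.0309). It kept its call without any 1 treated rat but lost it without vehicle rat 1, 2, 4 or 5. Dsc2, the desmosomal cadherin desmocollin 2, read 9.41, 9.78, 9.83, 10.02 and 9.83 in vehicle and 10.33, 10.51 and 11.16 in treated rats. Here too rat 3 was highest (0.89 ± 0.17, adjusted p = 0.0325), and the call was lost without rat 2 (0.0759) or rat 3 (0.0704). It was also lost without vehicle rat 1, 2, 3 or 5.

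Smaller rises of 0.44 to 0.73 passed in 10 further genes. Mitf, a bHLH leucine zipper factor, and Sik2, a salt-inducible kinase, rose by 0.73 and 0.72, each with a second, dimmer probe set near 0 (0.07 and 0.06). Ppp2r1b, a scaffold subunit of protein phosphatase 2A, read 8.39, 8.50 and 8.37 in treated rats against 7.66 to 7.98 in vehicle. The treated rats of Ppp2r1b and of the transcription factor Tfcp2 (8.13, 8.21 and 8.07 against 7.40 to 7.66) lay close together, although other probe sets of Tfcp2 gave 0.07 and 0.35. Cks1b, a regulatory subunit of cyclin-dependent kinases, rose by 0.60. Rbp2 (a retinol-binding protein), Cabcoco1, Acbd6 (an acyl-CoA binding protein), Amacr and Recql5 (a DNA helicase) rose by 0.60, 0.59, 0.56, 0.55 and 0.44. Without rat 2 only Sik2 of these kept its call, and without rat 3 Mitf, Sik2, Cks1b, Cabcoco1 and Acbd6 lost theirs. Mitf, Sik2, Rbp2, Cks1b, Cabcoco1, Acbd6 and Recql5 also lost their call when certain single vehicle rats were left out.

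The largest fall was in Cdkn1a, the gene of the cell cycle inhibitor p21, and it was also the least even. Cdkn1a read 10.95, 11.33, 10.92, 11.49 and 10.16 in vehicle and 8.64, 8.21 and 10.49 in treated rats. Rats 1 and 2 lay far below all vehicle rats, and rat 3 lay among them. The difference was -1.86 ± 0.37 (adjusted p = 0.0384), -2.55 without rat 3 (adjusted p 5.03e-05), -1.62 without rat 1 (0.0958) and -1.40 without rat 2 (0.196). Cdkn1a also lost its call without vehicle rat 1, 2, 3 or 4. It was the only one of 10 measured p53 targets to pass, and the list had a median of -0.08; Mdm2, another p53 target, differed by 0.27. Of 27 cell cycle genes 0 passed and 0 had an unadjusted p under 0.05.

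Slc6a6, the taurine transporter, read 10.31, 10.02, 10.16, 10.39 and 10.55 in vehicle and 9.71, 8.08 and 8.29 in treated rats. Rats 2 and 3 were far below vehicle and rat 1 only just below the lowest vehicle rat. The fall was 1.59 (-1.59 ± 0.29, adjusted p = 0.0232), and a second probe set gave -1.77. The call was lost without rat 2 (-1.28, adjusted p 0.137) or rat 3 (-1.39, 0.0592), while without rat 1 the difference was -2.10. Slc6a6 also lost its call without vehicle rat 1, 4 or 5. It was the only one of 20 solute transporters to pass. Slc22a7 and Slc30a10 were below vehicle in each treated rat without passing (-0.31 and -0.42).

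Nat8, which acetylates cysteine conjugates in the last step of mercapturic acid formation, read 9.86, 9.77, 9.70, 9.56 and 9.51 in vehicle and 8.99, 8.63 and 7.97 in treated rats. All 3 were below vehicle, rat 3 lowest (-1.15 ± 0.19, adjusted p = 0.0145), and without rat 2 the adjusted p was 0.0517. Sez6, a membrane protein known mainly from neurons, read 10.09, 9.83, 10.03, 10.01 and 9.95 in vehicle and 9.12, 8.84 and 8.77 in treated rats. Its groups were clearly apart (-1.07 ± 0.13, adjusted p = 0.000656) and it kept its call without any 1 rat. Spin2b, a spindlin family gene, read 6.23, 6.47, 6.47, 6.72 and 6.63 in vehicle and 5.77, 5.25 and 4.97 in treated rats (-1.17 ± 0.21, adjusted p = 0.0207). Rat 3 was again lowest, and the call was lost without rat 2 (0.0909) or rat 3 (0.0560). It was also lost without vehicle rat 2 or 4.

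Tsc22d3 (GILZ), a textbook glucocorticoid-induced gene, read 10.66, 11.22, 10.65, 11.08 and 10.59 in vehicle and 9.80, 9.78 and 10.0 in treated rats. The 3 treated rats lay close together below all vehicle rats (-0.98 ± 0.17, adjusted p = 0.0188; 0.0852 without rat 2). It was the only one of 17 glucocorticoid targets to pass (median 0.10); without rat 1, 1 gene of the list was also higher past it. The others did not pass: Fkbp5 read 8.66, 8.32 and 10.62 against 8.56 to 10.39, Tat differed by 0.65, and the metallothionein Mt2A read 13.85, 14.19 and 14.63 against 12.60 to 13.71, above vehicle in each treated rat (1.01 ± 0.22, adjusted p = 0.0855). Angptl4, a lipoprotein lipase inhibitor, was below vehicle in each (10.33, 10.57 and 10.58 against 11.23 to 11.73; adjusted p = 0.122).

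Further falls were found in cofactors and signalling genes. Fchsd2, a membrane-bending adaptor, read 10.15, 10.15, 10.01, 9.88 and 10.15 in vehicle and 9.57, 9.24 and 8.80 in treated rats (-0.86 ± 0.16, adjusted p = 0.0232). Tle1, a Groucho corepressor, read 9.73, 10.05, 10.10, 9.67 and 9.49 in vehicle and 9.01, 9.18 and 8.76 in treated rats (-0.83 ± 0.15, adjusted p = 0.0232). In both genes rat 3 was lowest and no treated rat reached the vehicle range, and both lost their call without rat 2 (0.0869 and 0.0517) or rat 3 (0.0562 and 0.0592). Fchsd2 also lost its call without vehicle rat 1, 2 or 5, and Tle1 without vehicle rat 1, 2 or 3.

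Ak4, a mitochondrial adenylate kinase, read 11.57, 11.62, 11.63, 11.19 and 11.60 in vehicle and 11.17, 10.36 and 10.61 in treated rats (-0.81 ± 0.16, adjusted p = 0.0364). Treated rat 1 and vehicle rat 4 nearly met, and a dimmer probe set gave -0.13. The call was lost without rat 2 (0.178) or rat 3 (0.0704), and also without vehicle rat 1, 2, 3 or 5.

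The other 8 falls were of 0.55 to 0.70. They were in Syne1 (nesprin-1 of the nuclear envelope, -0.70), the eIF4E kinase gene Mknk2 (-0.70), Ppard (a fatty acid-sensing nuclear receptor, -0.69), Hes1 (the Notch-responsive repressor, -0.69), Stard5 (a sterol-binding protein, -0.66), the AMPK-related kinase gene Nuak2 (-0.64), Zfp64 (-0.57) and Lsm11 (a component of the U7 particle of histone mRNA processing, -0.55). Each had all 3 treated rats below the vehicle range. Without rat 2 none of the 8 kept its call. Mknk2, Hes1 and Lsm11 also lost it without rat 3, and Zfp64 without rat 1. All but Syne1 also lost it when certain single vehicle rats were left out. Syne1, for example, read 8.15, 7.99 and 8.22 against 8.66 to 8.93. Over all called genes, 14 had more than 1 probe set, and their 21 other probe sets all had the same sign as the one used, though only 2 passed an adjusted p of 0.05 on their own.

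In the other lists 0 genes passed. The ATF4 and amino acid response genes numbered 21, with 7 higher and 1 lower at an unadjusted p under 0.05 (background 5.56% and 5.18%) and a median of 0.20. Fgf21, a hormone of this response, read 10.82, 8.63 and 10.34 against 7.86 to 8.91 (1.60 ± 0.38, adjusted p = 0.105), with rat 2 in the vehicle range. Chac1, a glutathione-degrading enzyme, read 9.67, 8.10 and 9.17 against 7.44 to 8.05, and Atf4 itself 11.83, 11.91 and 12.21 against 11.19 to 11.68. Rats 1 and 3 carried most of this pattern; their list means were 0.63 and 0.42 above vehicle and that of rat 2 was 0.06 above it. Without rat 2, 3 of the 21 genes were higher past the test, beside 8 of all 14217 genes. Without rat 1, 1 was lower, beside 46 of all genes.

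Targets of PPARA and genes of fatty acid and cholesterol synthesis gave 0 calls. Of 24 PPARA targets 2 were higher and 3 lower at an unadjusted p under 0.05 (median -0.02), with 1 lower past the test without rat 1 and 1 higher without rat 2. Ppara itself read 5.78, 5.25 and 5.04 against 5.75 to 6.33 (-0.68 ± 0.15, adjusted p = 0.0802). Among 16 fatty acid synthesis genes, 1 was higher and 4 were lower at an unadjusted p under 0.05 (background 5.56% and 5.18%). The desaturase Scd read 9.50, 9.53 and 9.80 against a wide vehicle range of 9.45 to 11.91. The 18 cholesterol synthesis genes split by rat: their mean was 0.52 above vehicle in rat 1, and 0.20 and 0.38 below it in rats 2 and 3 (-0.20 and -0.38), with a median difference of -0.01 and 0 genes at an unadjusted p under 0.05. The squalene epoxidase Sqle read 9.80, 8.34 and 9.13 against 8.86 to 9.22, above vehicle in rat 1, below it in rat 2 and inside its range in rat 3.

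Amino acid and urea cycle enzymes (21 measured, median -0.03) had 4 members lower at an unadjusted p under 0.05 (background 5.18%). Gls2 and Hal were below vehicle in each treated rat without passing (-0.34 and -0.44, adjusted p 0.139 and 0.164). Of 20 growth hormone and STAT5 genes, 1 was higher and 5 lower at an unadjusted p under 0.05 (background 5.56% and 5.18%). Among the lower genes was the lipocalin Obp3 (12.02, 12.86 and 12.60 against 13.23 to 13.41, adjusted p = 0.193). The 19 immediate early and chemokine genes included Egr1, at 10.28, 8.65 and 7.33 against 10.10 to 11.41; 2 of the 19 were lower past the test without rat 1, and 2 without rat 3. In 8 tubulins Tubb2a read 12.07, 11.31 and 11.75 against 12.43 to 12.61, below vehicle in each rat (adjusted p = 0.197). The unfolded protein response (19), acute phase (19), gluconeogenesis (14), heme (11) and thyroid hormone (11) lists had medians between -0.03 and 0.02.

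Markers of cell types other than hepatocytes gave 0 calls. In bulk tissue fewer cells of a type and less RNA per cell cannot be told apart. The medians were -0.10 for 9 macrophage, -0.09 for 12 stellate cell, -0.08 for 9 endothelial, -0.01 for 5 cholangiocyte, -0.02 for 10 lymphocyte, 0.19 for 6 neutrophil, -0.12 for 5 red cell, -0.08 for 12 pancreas and -0.18 for 6 adipocyte markers. At an unadjusted p under 0.05, 2 neutrophil markers were higher and 3 stellate cell, 2 lymphocyte, 3 pancreas and 2 adipocyte markers lower (background 5.56% and 5.18%). Without rat 3 the neutrophil median was -0.10. A stellate cell and a periportal marker passed as lower without rat 1, and a pancreas marker without rat 2.

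Set against the larger doses, genes at 76.5 mg/kg differed past the test only from 611 mg/kg. With limma, 0 genes (0.0%) differed between 153 and 76.5 mg/kg (1134 genes, 7.98%, at an unadjusted p under 0.05) and 0 between 305.5 and 76.5 mg/kg (1263 genes, 8.88%). Between 611 and 76.5 mg/kg 215 genes (1.51%) differed, 159 higher (1.12%) and 56 lower (0.394%) at 611 mg/kg. These counts also moved with single rats: without treated rat 1 they were 9, 3 and 321, and without rat 3 the last was 66. Without the array of rat 2 at 611 mg/kg it was 60. The GAPDH 3' minus 5' difference of that array was 2.89, against at most 1.56 on the other 16, and with this difference as a covariate the count was 110.

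Of the genes called at 76.5 mg/kg, 3 of 20 higher and 2 of 18 lower also differed between 611 and 76.5 mg/kg; these share the 76.5 mg/kg rats that chose them. Ces2c had group means of 10.22, 10.30, 11.23 and 11.72 from the smallest to the largest dose, and was 1.50 ± 0.17 higher at 611 than at 76.5 mg/kg (adjusted p = 0.00101). Dbp means were 8.33, 9.48, 10.19 and 10.17 (1.85 ± 0.42, adjusted p = 0.0394), and Nr1d2 was 0.68 ± 0.14 higher at 611 mg/kg (adjusted p = 0.0231). Nr1d1 means were 8.75, 9.19, 9.19 and 9.16, and its difference between 611 and 76.5 mg/kg, 0.41 ± 0.24, did not pass (adjusted p = 0.388).

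Among the falls, Slc6a6 means descended from 8.70 to 8.27, 7.68 and 7.13, and the difference between 611 and 76.5 mg/kg was -1.57 ± 0.32 (adjusted p = 0.0241). Sez6 was lowest at the smallest dose, with means of 8.91, 9.43, 9.39 and 9.65. It was higher at 611 than at 76.5 mg/kg by 0.74 ± 0.14 (adjusted p = 0.0179). Nceh1 means, 9.35 at 76.5 and 8.31, 8.40 and 8.98 at the larger doses, were also furthest from vehicle at 76.5 mg/kg, but no difference between doses passed (adjusted p = 0.376, 0.359 and 0.543). Cdkn1a means were 9.12, 8.41, 8.27 and 8.45, and at the larger doses no rat lay as high as treated rat 3.

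Cell division genes were among those that differed most between 611 and 76.5 mg/kg. Cdkn3, Ect2, Ccna2 and Mki67, which act in mitosis or mark dividing cells, were 2.58, 2.18, 2.17 and 1.80 higher at 611 mg/kg (adjusted p 0.010, 0.00818, 0.00371 and 0.00433). At 76.5 mg/kg Mki67 read 5.31, 5.85 and 5.13 against 5.03 to 5.79 in vehicle. The globin genes Hbb and Hba-a3, Bmal1 and Tubb2a were 1.50, 1.25, 1.33 and 1.23 lower at 611 than at 76.5 mg/kg (-1.50, -1.25, -1.33 and -1.23).

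**Figure D5:**
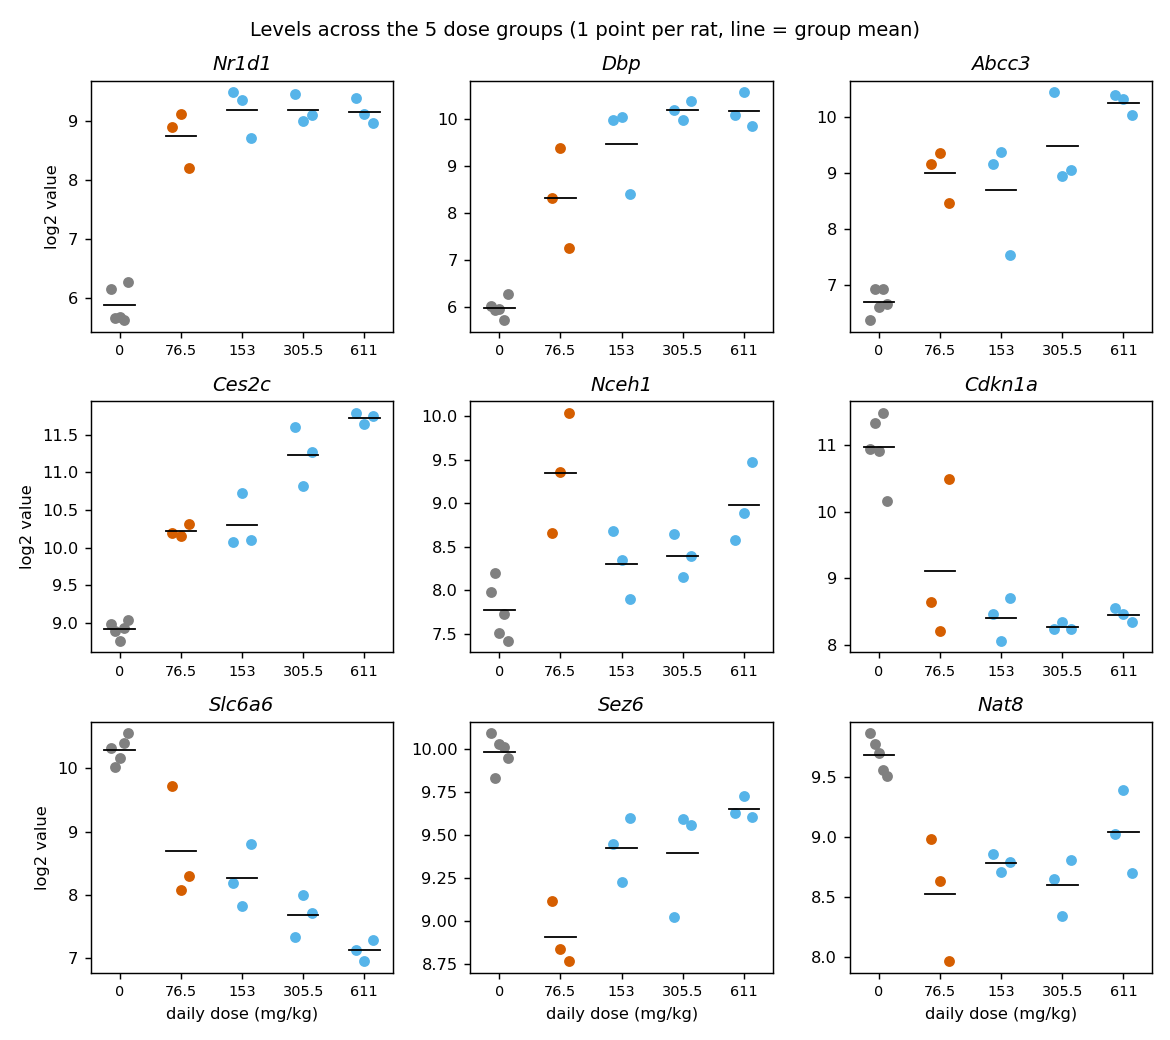
Log2 values (y axis) of 9 called genes in each rat of the 5 dose groups (x axis, daily dose in mg/kg, categories not to scale); points are rats and lines group means. Ces2c and Slc6a6 means lie further from vehicle at larger doses, the Nr1d1 mean is 8.75 or above in every treated group, and Sez6 is lowest at 76.5 mg/kg.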

How the data were processed

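Liver RNA of 17 rats was measured on 1 rat genome array per animal. The authors deposited log2 signals computed with RMA, per the submitters' processing notes; the software version is not given in the sources used here, and the scanner files were not analysed. All 17 columns matched a label. Of 31099 probe sets, 57 were controls, 20826 had a single symbol in the platform annotation of 2016, 436 had several symbols and 9780 had none. For a gene with more than 1 probe set (4525 of 14217 genes) the brightest on average was used. No filter on signal was used. The model was limma 3.58.1 in R 4.3.3 (lmFit, eBayes with trend) over all 17 arrays with the dose groups as a factor, so that other doses lend their spread to the comparison, with Benjamini-Hochberg adjustment over all genes and a threshold of 0.05. It was tested on simulated data. RNA quality was compared by exact permutation. List members that no single-symbol probe set named were not analysed.

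The comparison, the genes and the 35 gene lists were chosen with earlier results of these data known. Called genes could be named, and the 10 largest rises and 10 largest falls were given in every rat. Of each list the members that passed and up to 4 others with the smallest p could be named, and all clock genes. For each treated rat the 5 largest deviations upwards and downwards were eligible, as were the 5 largest differences each way between doses; acute phase, neutrophil, Cyp3a2, Cyp2c7, Fkbp5, Tat, Pnpla6 and Sqle values were named after they were seen. Same-numbered rats were checked for shared deviations (correlations 0.15, -0.03 and 0.12) and not paired. Alternatives were other probe set rules, omission of the dimmest 40% of genes, centring, repeated quantile normalization, array weights, other moderation, a replicate block, RNA quality as a covariate, other sample sets, leaving out each rat and stricter thresholds. Promoter sequences are from RefSeq (GRCr8).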

Additional observations from a re-analysis of the deposited data

Results flagged for a closer look

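In the vehicle group, 53 genes, the 38 called genes and the remaining clock genes, were checked for a single rat far from the other 4. Other genes named in the text were not checked. Chance alone marks about 1 in 20 groups. Vehicle rat 4 stood apart in 2 genes. Ak4 read 11.19 there, with the next vehicle rat at 11.57. Per1 read 8.19 there, with the next at 7.74. The groups of 3 treated rats were too small for this check.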

How the results depend on the processing

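No called gene reversed its direction in any of 21 alternative fits, but only Nr1d1 and Nr1d2 kept their call in all of them. The counts of higher and lower genes (20 and 18) ranged from 8 to 49 and from 3 to 46 over the fits leaving out 1 rat. They were 33 higher with the GAPDH 3' minus 5' difference as a covariate, 363 and 333 with array weights (which gave treated rat 1 a weight of 5.04 and rats 2 and 3 0.306 and 0.267), 13 higher with the mean over probe sets, 9 and 2 without 3 arrays that stood apart (treated rats 2 and 3, and rat 2 at 611 mg/kg), and 4 and 2 with only the groups compared in the fit. At an adjusted p under 0.01 they were 3 and 1, and with a difference of at least 1 they were 7 and 5. With the replicate number as a block they were 8 and 7, of which 14 were among the 38. The numbers do not pair the rats: no treated rat correlated best with the vehicle rat of its own number. Median centring, repeated quantile normalization, eBayes without trend or robust, each probe set on its own, omission of the dimmest genes and omission of the 611 mg/kg rat 2 array kept both counts within 1.5 times.

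Differences between 153 and 76.5 mg/kg, 0 in the fit reported, numbered 148 with array weights and 1 without the 3 arrays, and 0 to 9 when leaving out 1 rat. Between 305.5 and 76.5 mg/kg they numbered 452, 1 and 0 to 3. Between 611 and 76.5 mg/kg, against 215, they numbered 110 with the GAPDH covariate, 1058 with array weights, 8 without the 3 arrays, 60 without the 611 mg/kg rat 2 array, 9 with only the groups compared, 25 at an adjusted p under 0.01, 48 with a difference of at least 1, and 66 to 321 when leaving out 1 rat. The causes of these shifts were not tested. Of 693 list medians under alternatives, 613 moved by less than 1 SD and 80 by 1 SD or more. The GAPDH difference kept its direction throughout, between -0.31 and -0.05. Signals near log2 6 and below limit the sizes of the differences there.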

Other observations

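Without treated rat 3, 49 genes were higher and 34 lower past the test, of 14217 tested, and 24 of the 38 were among them. Some of the genes outside the 38 are named here after their values were seen. Hsd17b2, which oxidizes estradiol and testosterone, read 12.28 and 12.33 in rats 1 and 2 and 10.41 in rat 3, against 10.05 to 10.92 in vehicle; its difference was 1.87 ± 0.18 without rat 3 (adjusted p 5.03e-05) and 1.24 with it (adjusted p 0.137). Egfr, the epidermal growth factor receptor, read 10.56 and 10.91 in rats 1 and 2 and 11.96 in rat 3, against 11.65 to 12.24, with differences of -1.19 without rat 3 (adjusted p 0.0206) and -0.79 with it (0.272). Lpin1, a phosphatidate phosphatase, read 10.06 and 9.54 in rats 1 and 2 and 11.59 in rat 3, against 10.44 to 12.13 (-1.86 without rat 3, adjusted p 0.0253). Cxcl1 fell without rat 3 (-3.25, adjusted p 0.0213). In Hsd17b2, Egfr and Lpin1 rats 1 and 2 lay outside the vehicle range and rat 3 inside it. Choosing genes that pass only without rat 3 favours those in which it lay near vehicle. Rat 3 also lay inside the vehicle range in Chmp4c, Cxcl1 and Lgalsl, which likewise passed only without it. In Trim24, Per3, RatNP-3b and Nfil3, chosen in the same way, rat 3 lay outside that range on the same side as rats 1 and 2.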
